A study of Mus musculus with 14 samples.

Results

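AP-1 is a family of dimeric transcription factors (TFs) built from basic leucine zipper proteins of the JUN and FOS subfamilies, with BATF as a partner of JUN proteins. The loci of 8 family genes were examined, Jun, Junb, Jund, Fos, Fosb, Fosl1, Fosl2 and Batf, out of 21774 protein-coding genes of the RefSeq annotation of the mouse genome (GRCm38). A locus was the span of the gene extended by 30 kb on each side, and a peak of a deposited list was counted at the locus when it overlapped this window by at least 1 bp. Of 158488 peaks in all lists, 190 lay at the 8 loci, and no 2 of these windows overlapped.

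The peaks came from ChIP-seq (sequencing of DNA immunoprecipitated with an antibody to 1 factor) of cells differentiated from a mouse embryonic stem cell line of strain 129 that carries a GFP reporter driven by Brachyury. The 5 stages were mesoderm (MES; GFP-positive, FLK1-negative), hemangioblast (HB; positive for both), hemogenic endothelium (HE; Tie2 and KIT positive, CD41-negative), hematopoietic progenitors (HP; CD41-positive) and macrophages (MAC; CD11b-positive). There were 14 lists for 7 factors. They covered C/EBPβ at all 5 stages, ELK4 in MES, GATA2 in HB and HP, GATA1 and GFI1B in HP, and RUNX1 and PU.1 (encoded by Spi1) in HP and MAC. Each combination of factor and stage was 1 list from 1 cell line, so that there was no spread between replicates, no test was made, and counts are set beside the share of all coding genes that met the same rule. The lists hold positions only, and the identity of the sorted cells could not be checked against marker genes. For the scarce HE cells, mouse mRNA and recombinant histone 2B had been added as carriers.

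Several AP-1 genes are classical immediate-early genes. MAP kinases act on ELK-type ETS factors, which bind with the serum response factor SRF at an element that holds a CArG box (an A- and T-rich core between CC and GG) beside a short ETS core, and several Fos and Jun genes carry such elements. In myeloid cells AP-1 proteins share enhancers with PU.1 and C/EBPβ.

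The AP-1 loci were among the more widely occupied genes in these lists. Of 112 combinations of member and list, 46 (41.1%) held a peak, against 19.4% of the combinations of all coding genes and lists. The median was 5.5 lists per member and 3 lists per coding gene, and 23.5 peaks per member against 10 per coding gene. Member windows were the shorter ones, with a median of 65404 bp against 77219 bp. Junb and Fosb were each present in 9 of 14 lists, a number reached by 0.312% of coding genes. At Junb, however, the peaks of HP GATA1, HP GFI1B and RUNX1 of both stages were nearest to Prdx2 or Hook2. At Fosb, those of HP GATA2 and MES C/EBPβ were nearest to Ppm1n and Vasp. Fewer lists therefore had a peak nearest to the Junb or Fosb start site. Fos was present in 8 lists (as many or more in 1.17% of coding genes), Jund in 6 (6.46%) and Fosl2 in 5 (14.2%). The remaining 3 members, Jun, Fosl1 and Batf, were present in 3 lists each, a number reached by 55.6% of coding genes, so that the breadth belonged to some members and not to the family. Their lists were the same, HP PU.1, MAC PU.1 and MAC C/EBPβ.

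**Figure D1:**
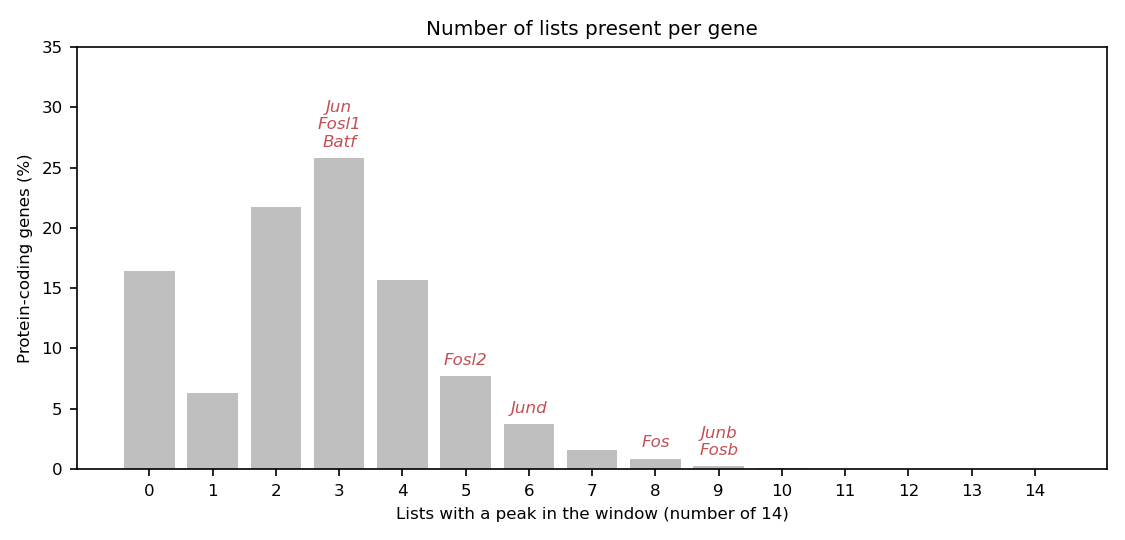
Bars give the percentage of 21774 protein-coding genes (y axis) by the number of the 14 lists with a peak in the gene's window (x axis), and names mark the AP-1 genes at their own number. Jun, Fosl1 and Batf stand on the highest bar at 3 lists, and Fos, Junb and Fosb stand at 8 and 9 lists, beyond nearly all coding genes.

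**Figure D2:**
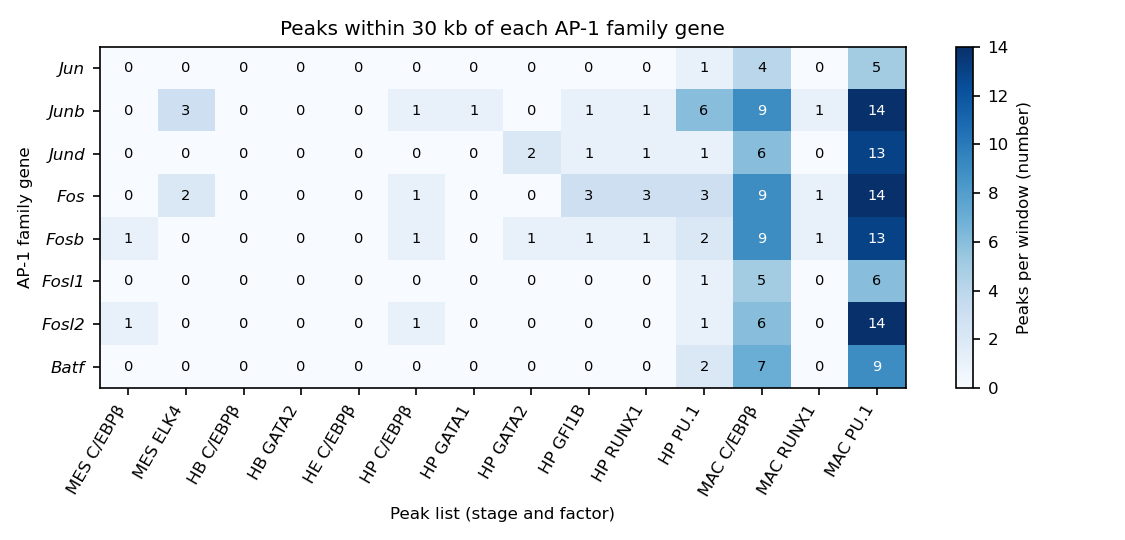
Each cell gives the number of peaks of 1 list (column, stage and factor) in the window of 1 AP-1 gene (row). The MAC PU.1 and MAC C/EBPβ columns are filled for every gene and hold 143 of the 190 peaks, and the columns of HB C/EBPβ, HB GATA2 and HE C/EBPβ are 0 throughout.

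By list, the share of members with a peak lay above the coding gene share in 11 of 14 lists. In MES, C/EBPβ was at 2 of 8 members (background 7.83%) and ELK4 at 2 (background 5.75%). The C/EBPβ count was 1 in 5 of the alternatives, which left the peak at Fosl2 or the one at Fosb. In HP, C/EBPβ was at 4 of 8 members (background 17.9%), GFI1B at 4 (14.4%), RUNX1 at 4 (9.43%), GATA2 at 2 (4.19%) and GATA1 at 1 (2.23%). In the first 50% of the file C/EBPβ was at 2 (background 10%). GATA2 was at 0 members with 10 kb on each side, and GATA1 was at 0 by nearest start site and in the first 50% of the file. PU.1 was at 8 of 8 members in HP, against 44.1% of coding genes. It was at 7 with 10 kb on each side (background 30.8%) and at 7 by nearest start site (29.5%). In the first 50% of the file it was at 6 (28.5%). In MAC, PU.1 was at all 8 (background 81.3%) and C/EBPβ at all 8 (background 77.3%), shares at which most coding genes are also occupied. MAC RUNX1, a list of only 72 peaks, was at 3 of 8 members, Junb, Fos and Fosb, against 0.602% of coding genes. The remaining 3 lists had no peak at a member. These were HB C/EBPβ, HB GATA2 and HE C/EBPβ, with peaks at 5.14%, 0.423% and 0.85% of coding genes. As a share of the peaks of each list, which is another quantity, 0 of 715, 0 of 97 and 0 of 132 peaks allow up to 0.42%, 3.09% and 2.27%. At such backgrounds 0 of 8 members does not set the family apart from other genes.

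**Figure D3:**
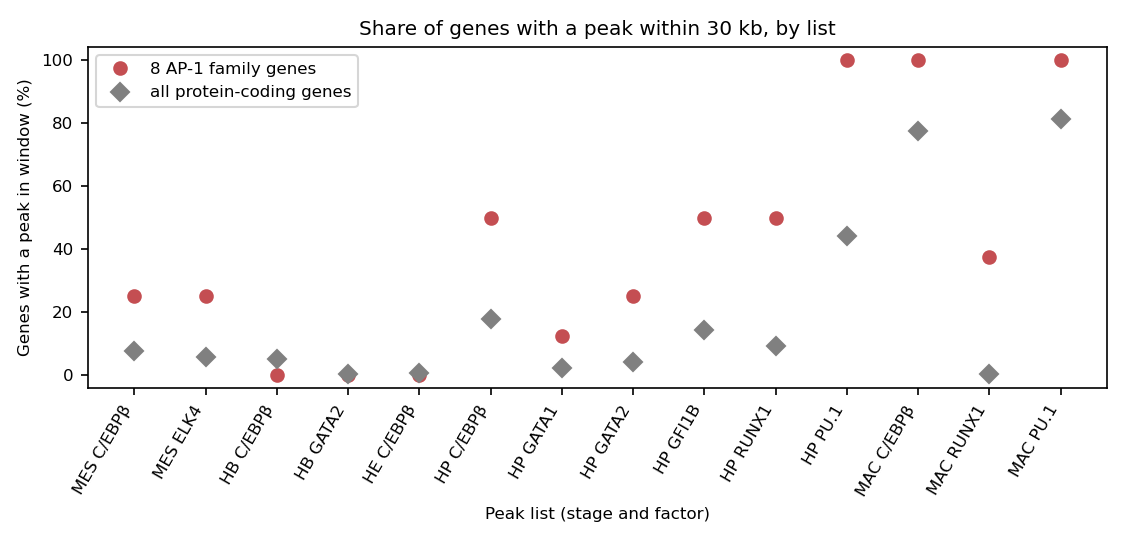
Points give, for each list (x axis), the percentage of genes with at least 1 peak in their window (y axis) for the 8 AP-1 genes (circles) and for all coding genes (diamonds). The widest gap is in HP PU.1, at 100% against 44.1%, and the circles lie below the diamonds in the 3 lists with no peak at a member.

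Peaks of all lists were merged where they overlapped, which gave 119 regions at the members out of 117293. Of these regions, 77 came from 1 list, 42 (35.3%) from 2 or more, 14 (11.8%) from 3 or more and 5 (4.2%) from 5 lists. Over all regions in windows of coding genes the shares were 28.5%, 5.7% and 0.329%. The regions with 5 lists lay at Junb (2), Fos (2) and Fosb (1). By their midpoints, 72 regions were intergenic, 23 lay in introns of coding genes and 6 in coding exons, and the rest lay in untranslated regions or non-coding transcripts. A member's own start site was the nearest coding start site for 76 of the 119. All 20 regions at Fos and all 8 at Jun were nearest to the member, whereas at Junb it was 7 of 20, at Jund 5 of 15, at Fosb 7 of 17 and at Fosl1 4 of 11. These 4 windows hold other coding genes as well, 5 at Junb and 7 at Fosl1. Which gene a region acts on was not measured.

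**Figure D4:**
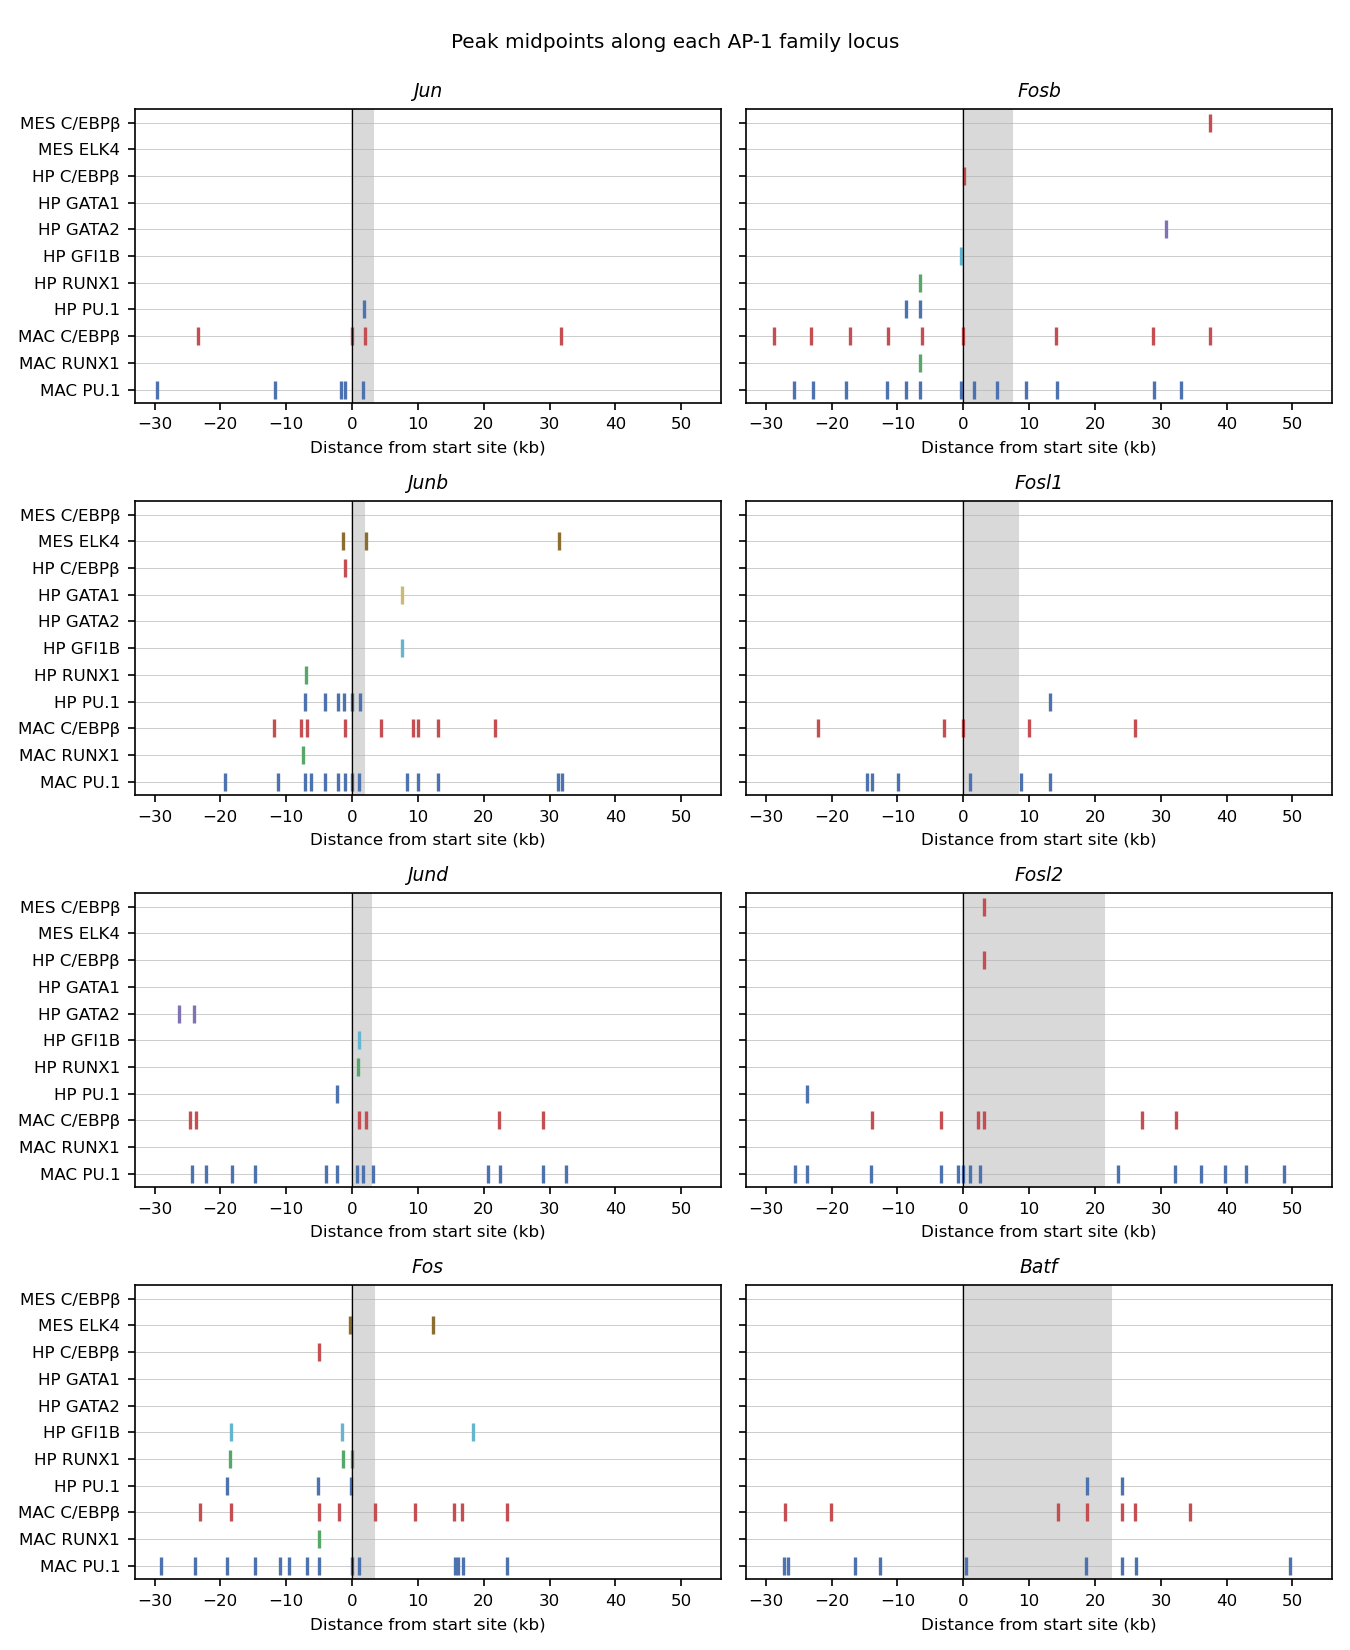
Each panel shows 1 AP-1 locus, with ticks at the midpoints of peaks by distance from the start site in kb (x axis, upstream negative), 1 row per list with a peak at a member, coloured by factor. Grey marks the gene. Columns of ticks across rows, such as those 6.5 kb upstream of Fosb and 5.0 kb upstream of Fos, are regions shared by several lists.

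Jun, the founding member and a target of JUN N-terminal kinases (gene 16476, chr4:95049036-95052222, - strand), was the barest locus of the JUN subfamily. It held 5 MAC PU.1 peaks, 4 MAC C/EBPβ peaks and 1 HP PU.1 peak, and none of the other 11 lists. At least 5 MAC PU.1 peaks were found at 53.9% of coding genes and at least 4 MAC C/EBPβ peaks at 44.5%. The start site carried a MAC C/EBPβ peak (chr4:95052038-95052437), and 2 MAC PU.1 peaks lay 1.0 and 1.7 kb upstream, over the antisense transcript Junos. The region with 3 lists (chr4:95049991-95050683, 1.9 kb downstream of the start site, in the single coding exon) joined MAC PU.1, MAC C/EBPβ and the HP PU.1 peak. That HP peak stood at place 10846 of 10943 in its file.

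The order of the deposited files is not explained in the sources used here. In 12 of 14 lists the share of peaks with the factor's own consensus was lower in the last 20% of the file than in the first 20%, for example 36.1% against 52.6% in HP PU.1. The exceptions were HB GATA2 and MES ELK4, at 9.52% in the last and 7.69% in the first 20% for ELK4, so that the order of the ELK4 file showed no such fall. Places in the file are given as a description only.

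Junb, a JUN protein with weaker transactivation than JUN (gene 16477, chr8:84976909-84978748, - strand), held 37 peaks, more than any other member. There were 14 of MAC PU.1, 9 of MAC C/EBPβ, 6 of HP PU.1, 3 of MES ELK4 and 1 each of HP C/EBPβ, GATA1, GFI1B and RUNX1 and of MAC RUNX1. As many HP PU.1 peaks as at Junb were found at 0.776% of coding genes. PU.1 covered the start site in HP and MAC (chr8:84978516-84978972, 5′ untranslated region) and the coding exon 1.1 kb downstream (chr8:84977413-84977905). Further upstream, a region of 5 lists lay 1.2 kb from the start site (chr8:84979597-84980289, intergenic), with ELK4 in MES and both C/EBPβ and PU.1 in HP and in MAC. Another region of 5 lists lay 7.2 kb upstream (chr8:84985333-84986641, intergenic), with RUNX1 and PU.1 in HP and RUNX1, PU.1 and 2 peaks of C/EBPβ in MAC. The coding start site nearest to it was that of Hook2, 4021 bp away. It held 4 matches to the AP-1 heptamer, TGACTCA on either strand, of which the 3 that stood close together are printed on the - strand with the matches in capitals (RefSeq sequence of GRCm38, as are all sequences here).

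Junb, 7.2 kb upstream, chr8:84985642-84985772: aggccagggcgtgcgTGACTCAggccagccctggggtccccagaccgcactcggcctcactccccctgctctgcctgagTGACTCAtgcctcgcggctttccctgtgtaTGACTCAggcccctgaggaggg

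Of the RUNX1 peaks in this region, the HP peak held 3 of the heptamers and the MAC peak 0. In the whole lists 7.06% of HP RUNX1 peaks and 13.9% of MAC RUNX1 peaks held at least 1. The single HP GATA1 peak at any member lay in the Junb window as well, but in an intron of Prdx2, a peroxiredoxin gene (chr8:84970891-84971344, merged with a GFI1B peak), and its nearest coding start site was that of Prdx2.

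Jund, the JUN protein that is expressed most constantly across tissues (gene 16478, chr8:70697739-70700616, + strand), held 24 peaks in 6 lists. There were 13 of MAC PU.1, 6 of MAC C/EBPβ, 2 of HP GATA2 and 1 each of HP GFI1B, RUNX1 and PU.1. Within the gene, 0.9 kb from the start site, a region of 4 lists (chr8:70698283-70699034) joined HP RUNX1, HP GFI1B, MAC PU.1 and MAC C/EBPβ, and a MAC PU.1 peak followed 1.7 kb from the start site. This region held 1 C/EBP match and 1 match to the cAMP response element TGACGTCA. Its RUNX1 peak stood at place 55 of 977 and its GFI1B peak at place 234 of 2018. Both GATA2 peaks lay near Lsm4, which encodes an RNA splicing protein, and far from Jund. One of them, 24.0 kb upstream, was the first entry of the HP GATA2 file and fell in a region with MAC PU.1 and C/EBPβ (chr8:70672953-70674250, intron of Lsm4) that carried a GATA match, printed on the + strand.

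Jund window, 24.1 kb upstream, chr8:70673661-70673787: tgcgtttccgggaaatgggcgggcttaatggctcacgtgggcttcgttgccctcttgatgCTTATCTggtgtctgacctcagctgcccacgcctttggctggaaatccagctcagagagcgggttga

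Fos, whose product pairs with JUN proteins and whose transcription rises within minutes of growth factor signals (gene 14281, chr12:85473890-85477274, + strand), had no coding neighbour in its window. It held 36 peaks, 14 of MAC PU.1, 9 of MAC C/EBPβ, 3 each of HP PU.1, RUNX1 and GFI1B, 2 of MES ELK4 and 1 each of HP C/EBPβ and MAC RUNX1. Of the 6 HP RUNX1 peaks at all members, 3 were therefore at Fos. The start site region (chr12:85473404-85474054) merged peaks of MES ELK4, HP RUNX1, HP PU.1 and MAC PU.1. A region 1.7 kb upstream (chr12:85471768-85472698) joined HP RUNX1, HP GFI1B and MAC C/EBPβ, and a MAC PU.1 peak lay 1.0 kb inside the gene. Farther out, the region 5.0 kb upstream (chr12:85468587-85469119) had PU.1 and C/EBPβ in HP and in MAC and RUNX1 in MAC, and the region 18.7 kb upstream (chr12:85454764-85455673, in an intron of the non-coding Gm38543) had PU.1, RUNX1 and GFI1B in HP and PU.1 and C/EBPβ in MAC. RUNX1 was thus at 3 places in HP and at 1 other place in MAC, with none in common. Over the whole list only 3.68% of HP RUNX1 peaks overlapped 1 of the 72 MAC RUNX1 peaks, so this does not set Fos apart. Among the HP peaks at Fos, the factor's own letters were found in a RUNX1 peak 1.4 kb upstream (TGTGGTT) and in a GFI1B peak 18.3 kb downstream that no other list shared, and both stretches are printed on the + strand with the match in capitals.

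Fos, 1.7 kb upstream, chr12:85472324-85472450: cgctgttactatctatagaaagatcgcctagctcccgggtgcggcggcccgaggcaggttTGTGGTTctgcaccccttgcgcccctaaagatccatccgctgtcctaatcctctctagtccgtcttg
Fos, 18.3 kb downstream, chr12:85492223-85492351: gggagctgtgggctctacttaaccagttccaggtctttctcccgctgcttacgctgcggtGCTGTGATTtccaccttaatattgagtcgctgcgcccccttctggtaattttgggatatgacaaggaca

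The ELK4 peaks of mesoderm were confined to Fos and Junb among the members, 5 peaks of 524. At Fos they lay 0.3 kb upstream, ending short of the start site that the RUNX1 and PU.1 peaks of the same region covered (place 43 in the file), and 12.2 kb downstream (chr12:85485913-85486312, place 13), where no other list had a peak. At Junb they lay in the region 1.2 kb upstream (place 310), 2.1 kb downstream of the start site and just past the end of the gene (chr8:84976421-84976820, place 175, in no other list), and 31.4 kb downstream in an intron of Rtbdn (place 374). A CArG box was present in 4 of these 5 peaks (80%, exact Clopper-Pearson 95% interval 28.4 to 99.5), all but the one in Rtbdn, against 27 of 524 peaks of the whole ELK4 list (5.15%). In the other lists 0 to 3.79% of peaks held one. An ETS core, GGAA or GGAT on either strand, lay within 20 bp of the box in all 4, in 25 of the 27 ELK4 peaks with a box (92.6%) and in 52.3% of the 1769 MAC PU.1 peaks with a box. At the members, however, the core also lay beside the box in all 5 MAC PU.1 peaks, the 1 GFI1B peak and the 1 MAC C/EBPβ peak that held a box, so that there it did not mark ELK4 peaks. The longer ETS consensus CCGGAAGT was in 0 of the 5 (interval 0 to 52.2%) and in 9.35% of the list. The boxes are printed in capitals on the strand of the gene, as the sequences that these ELK4 peaks share.

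Fos, start site region, chr12:85473521-85473650: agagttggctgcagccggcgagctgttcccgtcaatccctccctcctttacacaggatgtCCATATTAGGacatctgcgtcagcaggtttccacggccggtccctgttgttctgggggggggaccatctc
Fos, 12.2 kb downstream, chr12:85486054-85486183: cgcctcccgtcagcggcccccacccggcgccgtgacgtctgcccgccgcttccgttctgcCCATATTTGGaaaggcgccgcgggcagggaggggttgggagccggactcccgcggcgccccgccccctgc
Junb, 1.2 kb upstream, chr8:84980099-84980228: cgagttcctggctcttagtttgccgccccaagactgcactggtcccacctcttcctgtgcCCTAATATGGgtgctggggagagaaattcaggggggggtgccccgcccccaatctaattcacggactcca
Junb, 2.1 kb downstream, chr8:84976564-84976693: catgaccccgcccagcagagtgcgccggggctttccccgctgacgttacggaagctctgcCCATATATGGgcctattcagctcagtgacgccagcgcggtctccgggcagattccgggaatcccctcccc

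The middle of the box lay 304 bp upstream of the start site at Fos, 1416 bp upstream at Junb and 2119 bp downstream at Junb. The study had checked this ChIP by PCR at the Fos promoter and had set peak thresholds by eye at known genes, so that the peak at the Fos promoter is not independent of how the list was made. The peaks 12.2 kb downstream of Fos and at Junb are not named in that check.

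Fosb, a FOS protein with a shorter splice form that is long-lived in neurons (gene 14282, chr7:19302696-19310118, - strand), held 30 peaks in 9 lists. There were 13 of MAC PU.1, 9 of MAC C/EBPβ, 2 of HP PU.1 and 1 each of HP C/EBPβ, RUNX1, GFI1B and GATA2, of MES C/EBPβ and of MAC RUNX1. The GATA2 and MES C/EBPβ peaks lay 30.7 and 37.5 kb downstream, nearest to the start sites of Ppm1n and Vasp. The start site region (chr7:19309855-19310662) joined HP C/EBPβ, HP GFI1B, MAC C/EBPβ and MAC PU.1, and a MAC PU.1 peak lay 1.6 kb inside the gene. The start site region held a CArG box as well, 195 bp upstream, with no ELK4 peak on it but within a GFI1B peak and a MAC PU.1 peak, and it is printed for comparison on the - strand.

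Fosb, start site region, chr7:19310248-19310377: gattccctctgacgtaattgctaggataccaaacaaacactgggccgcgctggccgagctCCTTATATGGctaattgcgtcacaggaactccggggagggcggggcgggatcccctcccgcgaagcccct

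The region 6.5 kb upstream of Fosb (chr7:19316263-19316915, intergenic) was the only one at a member where RUNX1 was shared between HP and MAC together with a match to its own consensus. It had RUNX1 and PU.1 in HP and RUNX1, PU.1 and C/EBPβ in MAC, and stood early in most of these files, at place 10 of 977 for HP RUNX1, 251 of 10943 for HP PU.1, 587 of 82866 for MAC PU.1 and 1570 of 55471 for MAC C/EBPβ. In the MAC RUNX1 file it was at place 30 of 72. A RUNX match lay 6699 bp and an AP-1 heptamer 6666 bp upstream of the start site, both in capitals on the - strand, the RUNX match in its reverse orientation.

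Fosb, 6.5 kb upstream, chr7:19316751-19316850: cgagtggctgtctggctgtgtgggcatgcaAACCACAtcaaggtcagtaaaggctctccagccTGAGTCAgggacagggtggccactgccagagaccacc

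Fosl1, also called Fra-1, which encodes a FOS protein without a strong transactivation domain (gene 14283, chr19:5447698-5455938, + strand), resembled Jun in its lists, with 6 MAC PU.1, 5 MAC C/EBPβ and 1 HP PU.1 peaks. A MAC C/EBPβ peak lay at the start site (chr19:5447412-5447811) and a MAC PU.1 peak 1.1 kb inside the gene (chr19:5448581-5448980). No region at Fosl1 was in 3 lists. Its HP PU.1 peak, 13.2 kb downstream, was nearest to the start site of Fibp, so that no progenitor peak had the Fosl1 start site as its nearest.

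Fosl2, also called Fra-2 and of the same kind (gene 14284, chr5:32136472-32157840, + strand), held 23 peaks in 5 lists, 14 of MAC PU.1, 6 of MAC C/EBPβ and 1 each of HP PU.1, HP C/EBPβ and MES C/EBPβ. It was the only member with a C/EBPβ region found in MES, HP and MAC, in the first part of the gene 3.1 kb from the start site (chr5:32139386-32139807, intron). The peak stood at place 1014 of 1177 in MES, 433 of 2716 in HP and 532 of 55471 in MAC, and neither HB nor HE had a peak there. Over the whole MES C/EBPβ list, 47.6% of peaks overlapped an HP, 66.4% a MAC and 31.8% an HB C/EBPβ peak. The HE list held only 132 peaks. At such shares this pattern does not set Fosl2 apart from other MES C/EBPβ peaks. No PU.1 peak overlapped the Fosl2 region. It held 1 C/EBP match, here TTACGCAA, the reverse complement of TTGCGTAA, printed on the + strand.

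Fosl2, 3.1 kb downstream, chr5:32139515-32139642: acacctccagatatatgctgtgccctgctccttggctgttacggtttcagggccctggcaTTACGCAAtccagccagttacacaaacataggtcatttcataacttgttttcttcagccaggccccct

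A C/EBPβ peak of MAC 2.2 kb from the start site stood at place 161 and held no C/EBP match itself, while the MAC PU.1 peak that overlapped it held 1. Upstream, 23.8 kb from the start site (chr5:32112506-32112908), a PU.1 peak stood at place 132 of 10943 in HP and at place 17 of 82866 in MAC. The 3 regions within 2 kb of the start site (0.8 and 0.1 kb upstream and 1.0 kb downstream) were MAC PU.1 peaks alone.

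Batf, which lacks a transactivation domain and pairs with JUN proteins at composite sites (gene 53314, chr12:85686720-85709087, + strand), held 18 peaks, 9 of MAC PU.1, 7 of MAC C/EBPβ and 2 of HP PU.1. Its start site region was a MAC PU.1 peak alone (chr12:85686892-85687291, 0.4 kb downstream). In 2 regions PU.1 of HP and MAC lay with C/EBPβ of MAC, 18.7 kb downstream in an intron (chr12:85705198-85705738) and 24.1 kb downstream past the gene's end (chr12:85710633-85711041). The latter stood at place 81 of 82866 for MAC PU.1.

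Between progenitors and macrophages, PU.1 and C/EBPβ peaks at the AP-1 loci were carried over. All 17 HP PU.1 peaks overlapped a MAC PU.1 peak (interval 80.5 to 100%), as did 97% of the whole HP list, and all 4 HP C/EBPβ peaks overlapped a MAC C/EBPβ peak (39.8 to 100%), as did 91.4% of that list. These shares do not set the AP-1 loci apart from the rest. In the opposite direction, 17 of 88 MAC PU.1 peaks (19.3%, 11.7 to 29.1) had an HP PU.1 peak under them, against 12.8% of the list, and 4 of 55 MAC C/EBPβ peaks (7.27%, 2.02 to 17.6) an HP C/EBPβ peak, against 4.48%. Of 6 HP RUNX1 peaks, 1 overlapped a MAC RUNX1 peak (16.7%, 0.421 to 64.1), against 3.68% of a list compared with only 72 MAC peaks. Conversely 1 of 3 MAC RUNX1 peaks (33.3%, 0.84 to 90.6) overlapped an HP RUNX1 peak, against 50% of the list, and at Junb the peaks of both stages fell in 1 region without overlapping each other. Of the 3 HP GATA2 peaks, 0 overlapped one of HB (interval 0 to 70.8%), and in the list 1.13% did. A GATA match was in only 6 of the 97 HB GATA2 peaks (6.19%), against 46.6% of HP GATA2 peaks and 8.19% of MAC PU.1 peaks. Intervals and limits cover counting error only, and peaks at 1 locus are not independent.

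All 3 MAC RUNX1 peaks at the members overlapped both MAC PU.1 (interval 29.2 to 100%, against 83.3% of the list) and MAC C/EBPβ (29.2 to 100%, against 68.1% of the list). Of the 6 HP RUNX1 peaks, 4 overlapped HP PU.1 (66.7%, 22.3 to 95.7) against 20% of the list, and 3 overlapped GFI1B (50%, 11.8 to 88.2) against 17.9%. In the reverse direction, 3 of the 6 GFI1B peaks overlapped HP RUNX1 (50%, 11.8 to 88.2), against 8.67% of the GFI1B list. The list share lay just below the interval for HP RUNX1 on HP PU.1 and for GFI1B on HP RUNX1. Of the 6 peaks of either factor, however, 3 were at Fos, and peaks at 1 locus are not independent. None of the RUNX1 shares given here is therefore taken to set the AP-1 loci apart. Of 55 MAC C/EBPβ peaks, 27 overlapped a MAC PU.1 peak (49.1%, 35.4 to 62.9), against 42.5% of the list, a difference within the interval. With at least 200 bp of overlap required, the order turned, at 32.7% against 35.6%. By the 1 bp rule, a C/EBPβ peak on a PU.1 peak was present at 7 of 8 members, against a background of 63% of coding genes. There were 6 at Fosb, 4 each at Junb, Jund, Fos, Fosl2 and Batf, 1 at Jun and 0 at Fosl1.

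Consensus letters were searched on both strands of each 400 bp peak. Apart from the CArG box and the heptamer they were GAGGAAGT for PU.1, TGTGGTT for RUNX, AGATAAC and AGATAAG for GATA, AATCACAGC and AATCACTGC for GFI1, and TTGCACAA, TTGCATAA, TTGCGCAA and TTGCGTAA for C/EBP. The PU.1 and ETS letters share GGAAGT but cannot match at the same place. The PU.1 match was in 3 of 17 HP PU.1 peaks (17.6%, 3.8 to 43.4) against 42.1% of the list, within the interval, and in 13 of 88 MAC PU.1 peaks (14.8%, 8.11 to 23.9) against 24.4%, just above it. The C/EBP match was in 9 of 55 MAC C/EBPβ peaks (16.4%, 7.77 to 28.8) against 14.9%. The AP-1 heptamer itself was in 5 of the 55 (9.09%, 3.02 to 20) against 17.9%, and in 9 of 88 MAC PU.1 peaks (10.2%, 4.78 to 18.5) against 11.4%, with both list shares within the intervals. With any base allowed at the centre (TGANTCA), 5 of the 55 still matched, and the list share of 23.3% lay above the interval, while 10 of the 88 matched (11.4%) against 15.8% of the MAC PU.1 list. In the RefSeq promoter sequences, 250 bp before to 50 bp after a start site, 7 of 8 members were matched by symbol. Among these 7 the matches were a GATA match at Jun (4.8% of all 32851 promoters held one) and a RUNX match at Batf (5.27%), while the C/EBP, PU.1, GFI1, ETS, heptamer, cAMP response element and CArG letters were in none of these windows. The boxes of Fos, 304 bp upstream, and Fosb lay just outside them. The promoter sequence of Fosb counts from a start site farther inside the gene than the outer end of the gene span, from which distances are given here.

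Other genes of the pathway were counted by the same rule. Of 6 partner genes of AP-1 dimers (Batf2, Batf3, Jdp2, Atf2, Atf3 and Atf7), 6 had MAC PU.1 and MAC C/EBPβ peaks (81.3% and 77.3% of coding genes). Among them, 3 had HP C/EBPβ (17.9%) and 2 had HP PU.1 (44.1%). ELK4 (5.75%), HP RUNX1 (9.43%) and MAC RUNX1 (0.602%) were at 0 of the 6, which at such backgrounds does not set these genes apart. Of 10 genes that act upstream (Mapk3, Mapk8, Mapk9, Mapk14, Map2k4, Map2k7, Elk1, Elk3, Elk4 and Srf), 10 had both MAC factors, 8 had HP PU.1, 4 had HP C/EBPβ, 3 had HP RUNX1 (Mapk8, Mapk14 and Map2k7; 9.43% of coding genes), 1 had ELK4 (Map2k7; 5.75%) and 0 had MAC RUNX1. The median was 3.5 lists per gene in either set, against 3 over coding genes, and the highest number was that of Map2k7, a kinase that activates JUN N-terminal kinases, with 6 lists. Its window holds 6 other coding genes, and 4 of its 16 peaks were nearest to its own start site. The windows of Jdp2 and Batf overlap, and 4 MAC peaks were counted at both.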

How the data were processed

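The deposited values are peak positions in base pairs (start and end on mm10, GRCm38), with no score or other measurement. According to the methods and processing notes, the authors aligned reads with Bowtie, removed duplicates, called peaks with MACS against a stage-matched input at a threshold chosen by eye for each list, and set each peak to 400 bp. They also name bedtools, and tool versions are not given in the sources used here. Technical sequencing runs were merged for some lists. The p-value threshold differed between lists, so the length of a list is no measure of occupancy, and read depth was not used here.

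All peaks on nuclear chromosomes lay within GRCm38 lengths. Windows, merging (at least 1 bp) and distances used RefSeq genes and 26032 start sites of curated coding transcripts, in Python 3.11.15 with NumPy 2.4.6, SciPy 1.17.1 and Matplotlib 3.10.9, and were tested on simulated data. Groups came from the sample titles. All 8 members are named, with regions within 2 kb of a start site or in at least 3 lists and the region of a list with 1 peak at the members. Rtbdn, Ppm1n, Vasp and Fibp, and other single regions, were named after their values were seen. The members and gene lists were chosen with earlier results of these data known. Among the upstream genes, 1 of the list is not reported here and enters no count.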

Additional observations from a re-analysis of the deposited data

How the results depend on the processing

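The number of merged regions followed the window, with 59 at 10 kb and 327 at 100 kb on each side, and was 74 when only the first 50% of each file was used, an alternative chosen after seeing the data. The share of MAC C/EBPβ peaks at the members on a PU.1 peak fell to 32.7% (35.6% of the whole list) when 200 bp of the peak had to be shared and to 30.8% (32.5% of the list) in the first 50% of the files, below the whole list both times. Under the remaining 34 of 39 alternatives the values stayed within 1.5 times or within the interval. Members exceeded the coding gene share in 10 or 11 lists throughout, and 37 to 54 combinations held a peak. Of 84 counts of members by list under these alternatives, 15 moved by more than 1.5 times. They were 6 for MES C/EBPβ (1 member in 5 of them and 4 at 100 kb), 4 for HP GATA2, 3 for HP GATA1, 1 for MES ELK4 (4 members at 100 kb) and 1 for HP C/EBPβ (2 members in the first 50% of the file). A stricter peak threshold was not run because the files carry no score. No paired analysis was possible because each factor and stage had 1 list.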

Other observations

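The GATA peaks of progenitors in the AP-1 windows lay at neighbouring genes. Of the 3 HP GATA2 peaks, 2 were nearest to Lsm4 and 1 to Ppm1n, and the HP GATA1 peak was nearest to Prdx2 and lay on a GFI1B peak. Outside the windows, an HP GATA2 peak had the start site of 1 AP-1 gene as its nearest. The second GATA2 peak at Lsm4 and the one at Ppm1n stood at places 523 and 525 of 530 in the file, at its end, whereas the first stood at place 1. Both MES C/EBPβ peaks overlapped a MAC C/EBPβ peak (2 of 2, interval 15.8 to 100%, against 66.4% of the list), and 1 of them was nearest to Vasp (chr7:19272403-19272839) and 1 to Fosl2. At Fibp, a gene of growth factor signalling in the Fosl1 window, a PU.1 peak stood at place 922 of 10943 in HP and 931 of 82866 in MAC.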
